A study of Mus musculus with 4 samples.

Results

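Endocrine cells lie singly among the glands of the gastric corpus, the region that makes acid. The genes described here are 31 genes of their hormones, hormone-processing enzymes, amine pathway, secretory granules and transcription factors. They were chosen by symbol, and all 31 are rows of the deposited table, which holds 52125 rows. RNA was sequenced from the corpus of 4 wild-type C57BL/6 mice aged 6 to 8 weeks, 1 mouse per library. The 2 mice of the HDT group received HDT once into the peritoneum, at 5 mg for each 20 g of mouse, and were compared with 2 mice of the Vehicle group at 48 hr. HDT is the usual short form of high-dose tamoxifen, although the labels do not spell it out. The titles name a vehicle and the protocol speaks of untreated mice, so what the controls received is not settled by the labels.

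Several endocrine cell types share the corpus. Enterochromaffin-like (ECL) cells make histamine with the decarboxylase Hdc and drive acid secretion when gastrin reaches them. D cells release somatostatin, which restrains ECL and parietal cells, X/A-like cells release ghrelin, and enterochromaffin cells make serotonin. All of them store their products in dense-core granules built around chromogranins and secretogranins, and prohormone convertases cut the stored precursors. Transcription factors such as Neurod1, Insm1 and Pax6 direct the endocrine fate. Gastrin itself comes from G cells of the antrum, the distal part of the stomach.

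The labels were compared with markers of the tissue and of other cells. The parietal cell proton pump gene Atp4b was at 4724 and 4974 CPM (reads scaled to library size by the TMM method, trimmed mean of M-values) in Vehicle replicates 1 and 2 and at 563 and 494 CPM in HDT replicates 1 and 2. Depth ranged from 41536686 to 42674985 reads per library. The gastrin gene Gast had 0 reads in both Vehicle libraries and 2 and 1 reads in the HDT libraries. Any count of 0 allows up to 3 reads, which here is 0.0852 and 0.0871 CPM in Vehicle replicates 1 and 2. The islet hormone genes Ins1 and Ins2 had 0 reads in all 4 libraries, as did G6pc2, Slc30a8 and Ffar1, and 10 islet markers together reached 0.581 to 1.34 CPM. Vehicle replicate 2 stood apart in enzymes of the exocrine pancreas. Pnlip was at 28.4 CPM there and at 0.0568 to 0.119 CPM in the other libraries. Cpa1 was at 16.1 CPM there and had 0 reads elsewhere. The 7 smooth muscle markers summed to 3190 and 2258 CPM in the Vehicle libraries and to 1920 and 2788 CPM in the HDT libraries, and the groups overlapped. In whole tissue, fewer cells of a type and less RNA per cell cannot be told apart.

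Of 31 genes, 29 had enough reads to be tested (15 to 30265 reads per library). Against Vehicle, 6 were lower in HDT (Ghrl, Sst, Cpe, Pcsk1n, Syp and Resp18), 3 were higher (Vgf, Ddc and Isl1) and 20 had no call (limma, adjusted p below 0.05). Over all 18285 tested genes 19.3% were lower, 18.4% were higher and 37.7% were called in either direction. The share of called endocrine genes, 31%, was thus not above that of all genes. Their median log2 fold change was −0.32, against −0.002 for all genes. Both HDT libraries lay below both Vehicle libraries for 14 of the 29, against 35.5% of all genes, and above them for 5, against 35.3%. Direction depended on scaling for many of them. With the values scaled as the authors deposited them, the median of all genes was 0.526, and that of the endocrine genes was 0.21. There 2 endocrine genes were lower, against 5.46% of all genes, and 6 were higher, against 62.8%. By edgeR on recovered reads the counts were again 6 lower (19.2% of all genes) and 3 higher (18.4%), and by DESeq2 they were 7 lower (16.8%) and 4 higher (15.2%). Changes are given with TMM, which sets the median of all genes close to 0.

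**Figure D1:**
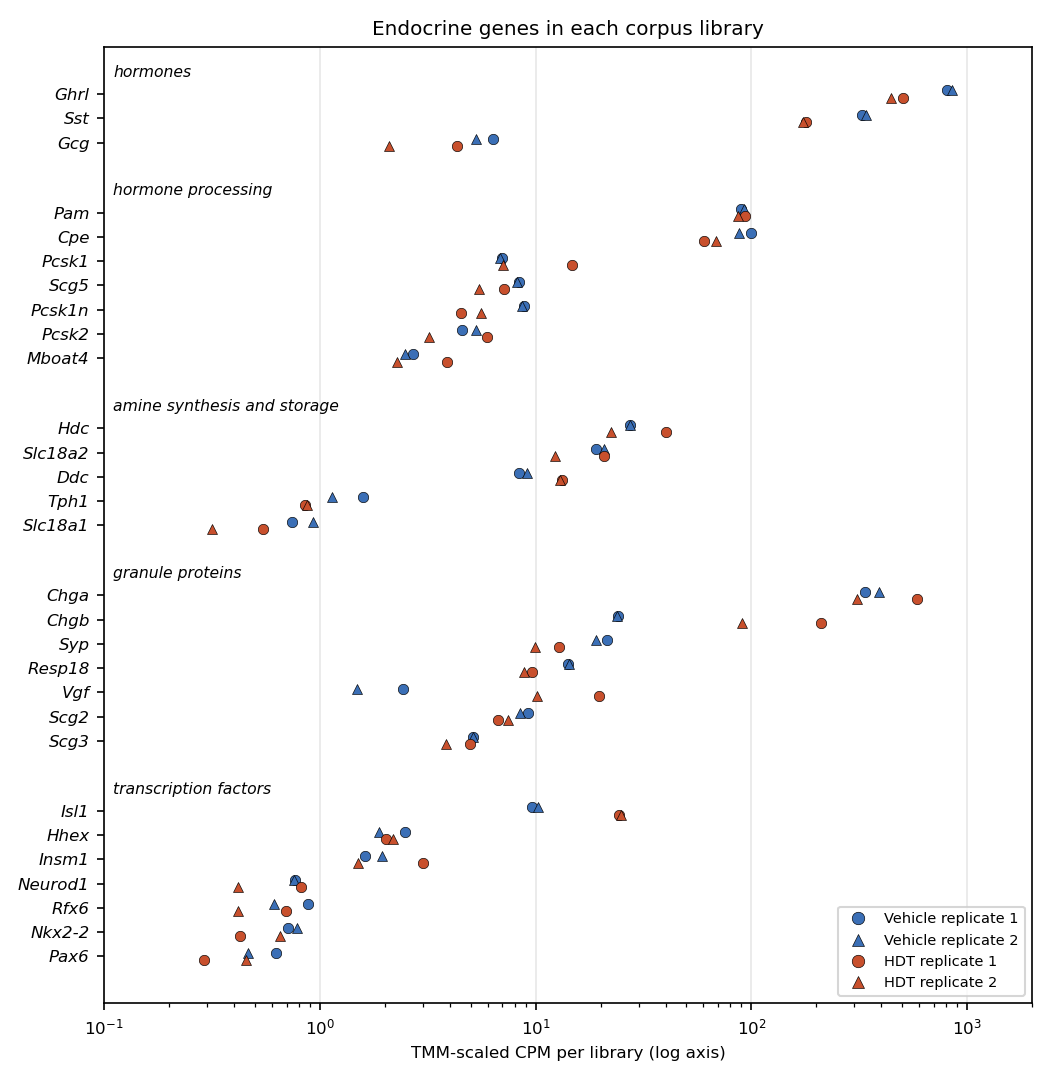
Level of each of the 29 tested endocrine genes in each library, as TMM-scaled CPM on a log axis. Genes are grouped by role, blue marks Vehicle and red HDT, and circles and triangles mark replicates 1 and 2. Ghrl and Sst lay lower in both HDT mice, Chgb and Vgf lay higher in both, and Chga and Hdc had 1 HDT mouse on each side of the Vehicle mice.

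A cyclic-AMP response element, the palindrome TGACGTCA that CREB-family factors bind, stood in several promoters of these genes, and its surroundings are shown because Sst, which fell, and Chgb, which was higher in both HDT mice, both carry it. RefSeq promoter windows (GRCm38.p6, 250 bases before to 50 after a start) were found for 26 of the 31 genes. Vgf, Insm1, Slc18a1, Mboat4 and Cpe had no window and were not searched. The element was in windows of 6 of the 26, compared with 2.03% of all 27025 genes with windows. The shorter letters TGACG or CGTCA, which the full element contains, were in 13 of 26, compared with 23% of all genes. Both strands were searched. Each line gives 30 bases, 5′ to 3′ on the gene's strand, with the element in capitals.
Chgb: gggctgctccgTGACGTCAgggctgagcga
Sst: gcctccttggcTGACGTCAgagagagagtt
Pcsk1: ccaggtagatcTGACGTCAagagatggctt
Scg2: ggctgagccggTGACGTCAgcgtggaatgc
Slc18a2: agcgctgtccgTGACGTCAgagccggactg
Pax6: tctggccgccgTGACGTCAtccgcgcccgg
The Chgb stretch is chr2:132781559-132781588 on the plus strand, and the Sst stretch is chr16:23890874-23890903 on the minus strand. Pcsk1 is shown at chr13:75089768-75089797 (plus), Scg2 at chr1:79440076-79440105 (minus), Slc18a2 at chr19:59260863-59260892 (plus) and Pax6 at chr2:105668809-105668838 (plus). The element began 48 bases before the RefSeq start in Sst, 68 in Scg2, 72 in Chgb, 76 in Pax6, 78 in Pcsk1 and 4 in Slc18a2. The stretches of Chgb, Scg2 and Sst overlap an exon of a GENCODE M21 model. Pax6 has 2 windows, of which 1 carries the element. A match describes letters only. Among these 6 genes Sst fell, and Chgb had the second largest log2 fold change of all 29 without passing the test.

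Of 5 hormone genes 3 were tested, and the abundant ones, Ghrl and Sst, fell, against 19.3% lower among all genes. Ghrelin (Ghrl, chromosome 6, 113716119 to 113719880), the appetite-stimulating hormone of X/A-like cells, was at 808 and 855 CPM in the Vehicle mice and at 507 and 445 CPM in the HDT mice. The groups did not overlap, and the Vehicle mean was 1.75 times that of HDT (log2 fold change −0.81, SE 0.081, limma adjusted p = 0.000197). Somatostatin (Sst, chromosome 16, 23889573 to 23890958), the inhibitory hormone of D cells, was at 326 and 340 CPM in Vehicle and at 179 and 174 CPM in HDT. The 2 mice of each group were close, and the Vehicle mean was 1.89 times that of HDT (log2 fold change −0.92, SE 0.061, limma adjusted p = 2.59e-05). Both were still lower at the deposited scaling, by −0.27 for Ghrl (adjusted p = 0.0136) and −0.38 for Sst (adjusted p = 0.000386), and they were the only endocrine genes called lower there. The ratio of Ghrl reads to Sst reads stayed within 2.48 to 2.84 over the 4 libraries.

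The other hormones were scarce. Proglucagon (Gcg), the precursor of glucagon and glucagon-like peptides, was at 6.36 and 5.31 CPM in Vehicle and at 4.34 and 2.08 CPM in HDT. Both HDT mice were lower, but they differed 2.08-fold from each other and the test was not passed (log2 fold change −0.95, SE 0.363, limma adjusted p = 0.103). Without HDT replicate 1 the log2 fold change was −1.467. Gcg passed with DESeq2 on the recovered reads (adjusted p = 0.0278). Neurotensin (Nts), a peptide of intestinal endocrine cells and nerves, had too few reads for the test, with 6 and 8 in Vehicle and 1 and 1 in HDT. Pooled over mice this is 10.2 times more in Vehicle, with an exact 95% interval of 2.35 to 92.9 that covers counting error only. Gast was at or under the limit of 3 reads in every library, so no fold is given. Intestinal epithelium could carry Gcg and Nts. Of its 8 tested markers 3 were higher (18.4% of all genes) and 1 was lower (19.3%), with a median log2 fold change of 0.45. The 11 listed markers summed to 249 and 238 CPM in Vehicle and to 146 and 174 CPM in HDT. That fall came from Apoa4, at 129.6 and 127.8 CPM in Vehicle and at 7.68 and 7.15 CPM in HDT. The other 10 markers summed to 119.6 and 110.3 CPM in Vehicle and to 138.8 and 167.1 CPM in HDT. The largest of them was Rbp2, at 65.5 and 59.7 CPM in Vehicle and at 69.1 and 78.3 CPM in HDT. Cdx1 had 1 and 1 reads in Vehicle and 0 and 1 in HDT, and Cdx2 had 0 and 0 in Vehicle and 0 and 2 in HDT. The part of intestinal epithelium in Gcg and Nts was not tested.

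Of 7 genes of hormone processing, 2 fell, Cpe and Pcsk1n, and 5 had no call, against 19.3% lower and 18.4% higher among all genes. Carboxypeptidase E (Cpe), which trims basic residues from cut precursors, was at 99.4 and 88.0 CPM in Vehicle and at 60.5 and 68.7 CPM in HDT (log2 fold change −0.54, SE 0.087, limma adjusted p = 0.00211). ProSAAS (Pcsk1n), an inhibitor of the first convertase, was at 8.86 and 8.68 CPM in Vehicle and at 4.53 and 5.59 CPM in HDT (log2 fold change −0.80, SE 0.134, limma adjusted p = 0.00249). At the deposited scaling neither was called, and the Cpe value there was −0.005 (adjusted p = 0.967). The first convertase itself, Pcsk1, was at 6.96 and 6.85 CPM in Vehicle, at 14.7 CPM in HDT replicate 1 and at 7.07 CPM in HDT replicate 2. Only HDT replicate 1 was clearly above the Vehicle mice, and the test was not passed (log2 fold change 0.56, SE 0.398, limma adjusted p = 0.354). The other convertase, Pcsk2, was at 4.55 and 5.31 CPM in Vehicle and at 5.97 and 3.19 CPM in HDT. Its Vehicle mice lay between the HDT mice.

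Secretogranin V (Scg5), a chaperone of Pcsk2, was at 8.41 and 8.19 CPM in Vehicle and at 7.16 and 5.49 CPM in HDT, just outside the threshold (limma adjusted p = 0.0597). The ghrelin O-acyltransferase Mboat4, which attaches the fatty acid that ghrelin needs for its receptor, was at 2.699 and 2.47 CPM in Vehicle and at 3.87 and 2.28 CPM in HDT. Its groups overlapped (limma adjusted p = 0.569), while its substrate gene fell. The ratio of Ghrl reads to Mboat4 reads was 299 and 346 in Vehicle and 131 and 195 in HDT. The amidating enzyme Pam, which completes many peptide hormones, was at 89.6 and 92.7 CPM in Vehicle and at 93.4 and 87.2 CPM in HDT. Pam had a log2 fold change of −0.01 with TMM (SE 0.064). As deposited it was 0.52, called higher.

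Of 5 genes of amine synthesis and storage, 1 rose, against 18.4% of all genes, and 4 had no call. The aromatic amino acid decarboxylase Ddc, which makes serotonin and dopamine, was at 8.41 and 9.09 CPM in Vehicle and at 13.2 and 13.0 CPM in HDT. It rose, with the HDT mean 1.496 times that of Vehicle (log2 fold change 0.58, SE 0.096, limma adjusted p = 0.00229), and it kept its call in every alternative run. The histamine-forming enzyme Hdc was at 27.5 CPM in both Vehicle mice and at 40.3 and 22.2 CPM in HDT replicates 1 and 2. The HDT mice lay on opposite sides of the Vehicle mice (log2 fold change 0.12, SE 0.358, limma adjusted p = 0.824). Without HDT replicate 1 the log2 fold change of Hdc was −0.299, and without HDT replicate 2 it was 0.568. The vesicular monoamine transporter of ECL cells, Slc18a2, was at 19.1 and 20.6 CPM in Vehicle and at 20.6 and 12.2 CPM in HDT. HDT replicate 1 was at the Vehicle level and HDT replicate 2 was lower.

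Genes linked to enterochromaffin cells were low throughout. Tryptophan hydroxylase (Tph1), the first step of serotonin synthesis, was at 1.59 and 1.13 CPM in Vehicle and at 0.855 and 0.872 CPM in HDT (limma adjusted p = 0.09). The other vesicular transporter, Slc18a1, was at 0.739 and 0.929 CPM in Vehicle and at 0.544 and 0.317 CPM in HDT (limma adjusted p = 0.0643). Both genes were lower in both HDT mice without passing the test, although the decarboxylase of the same pathway rose. Mast cells also make Hdc, Tph1 and Slc18a2. Of 12 tested mast cell markers 3 were lower, against 19.3% of all genes, and 0 higher, against 18.4%. The 13 listed markers summed to 157 and 108 CPM in Vehicle and to 46.3 and 59.9 CPM in HDT. The mast cell list includes Kit, which interstitial cells of the gut wall also make and which went from 57.8 and 61.5 to 10.9 and 13.9 CPM. Kit was the largest part of the fall in that sum. Mcpt1 was high only in Vehicle replicate 1, at 29.5 CPM, against 6.07 CPM in Vehicle replicate 2 and 4.63 and 7.19 CPM in HDT. The part of mast cells in the amine genes was not tested.

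Of 7 granule proteins, 1 rose, 2 fell and 4 had no call, against 18.4% higher and 19.3% lower among all genes. The largest values were those of Vgf and Chgb. Chromogranin B (Chgb, chromosome 2, 132781278 to 132795079), a core protein of dense granules, was at 24.2 and 23.9 CPM in Vehicle and at 210 and 90.6 CPM in HDT. Both HDT mice were far above both Vehicle mice, and the HDT mean was 6.25 times that of Vehicle. The HDT mice also differed 2.32-fold from each other, and the test was not passed (log2 fold change 2.52, SE 0.553, limma adjusted p = 0.074; edgeR adjusted p = 0.0833). With HDT replicate 1 left out the log2 fold change was 1.919, and with HDT replicate 2 left out it was 3.143. Chgb was called at the deposited scaling (3.052, adjusted p = 0.0426) and by DESeq2 (2.648, adjusted p = 3.57e-05).

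The granin Vgf (chromosome 5, 137026392 to 137033351), a neuroendocrine precursor induced by growth factors in nerve cells, was at 2.42 and 1.48 CPM in Vehicle and at 19.6 and 10.1 CPM in HDT. The groups were well apart, and the HDT mean was 7.63 times that of Vehicle (log2 fold change 2.88, SE 0.433, limma adjusted p = 0.0119). With Vehicle replicate 1 left out the log2 fold change was 3.228 (adjusted p = 0.106), and with Vehicle replicate 2 left out it was 2.53 (adjusted p = 0.211). Chromogranin A (Chga, chromosome 12, 102554969 to 102565028), the standard marker of endocrine cells, was at 336 and 392 CPM in Vehicle and at 588 and 308 CPM in HDT. As for Hdc, the HDT mice lay on opposite sides of the Vehicle mice (log2 fold change 0.23, SE 0.421, limma adjusted p = 0.724).

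**Figure D2:**
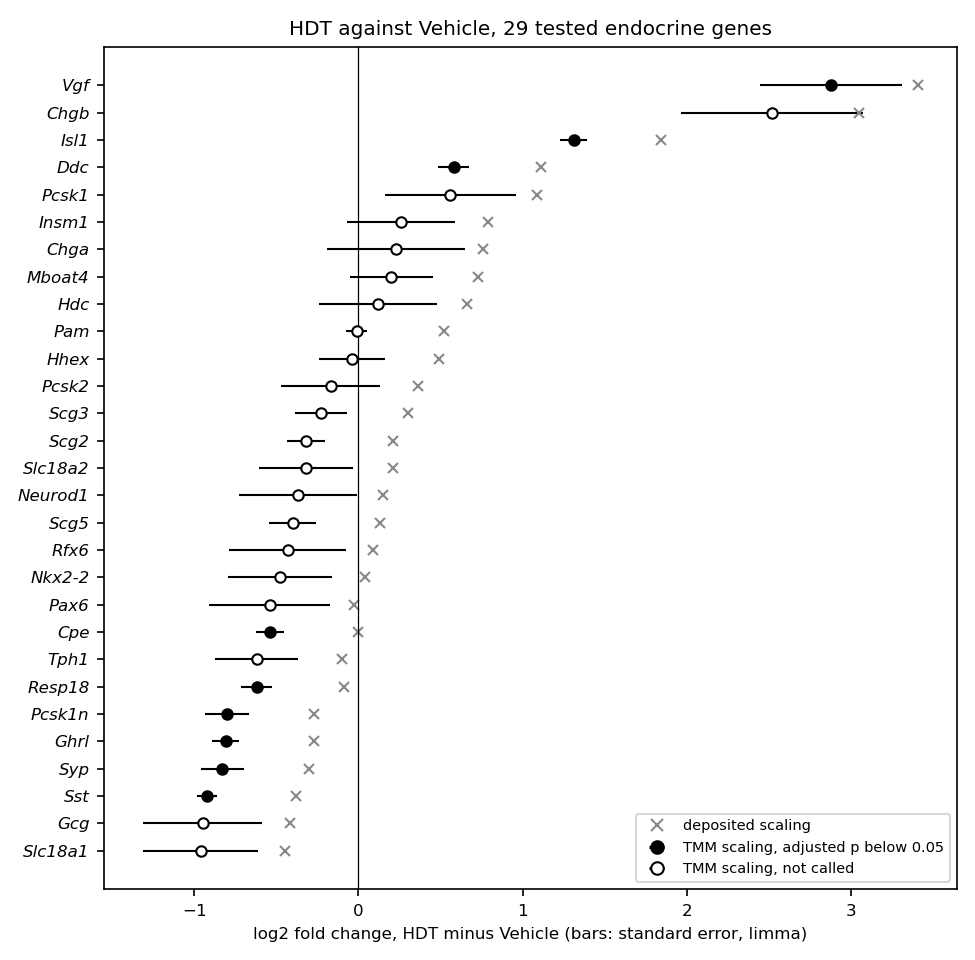
Log2 fold change (HDT minus Vehicle) of the 29 tested endocrine genes, with bars for the standard error of the limma fit. Filled circles passed the test with TMM, open circles did not, and crosses give the value at the deposited scaling. Vgf at 2.88 and Chgb at 2.52 lie apart from the rest, and the crosses of 10 genes, all of them not called with TMM and among them Scg2, Scg3 and Hhex, fall on the other side of 0.

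Ratios of reads within a library do not depend on the scaling of libraries. They were formed against Hdc after the values had been seen, and are a description. Reads of Chga per read of Hdc were 12.2 and 14.3 in Vehicle and 14.6 and 13.9 in HDT, a narrow range although both genes differed nearly as much between the HDT mice. Reads of Chgb per read of Hdc were 0.88 and 0.87 in Vehicle and 5.22 and 4.07 in HDT. Reads of Vgf per read of Hdc were 0.0878 and 0.0539 in Vehicle and 0.487 and 0.455 in HDT. For both Chgb and Vgf the HDT mice were much closer to each other on this ratio than in CPM, and far from the Vehicle mice. Hdc itself was 1.81 times as high in HDT replicate 1 as in HDT replicate 2. The closeness of the HDT mice therefore follows from the division and is no separate evidence. Reads of Chgb per read of Chga were 0.0721 and 0.061 in Vehicle and 0.357 and 0.294 in HDT.

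**Figure D3:**
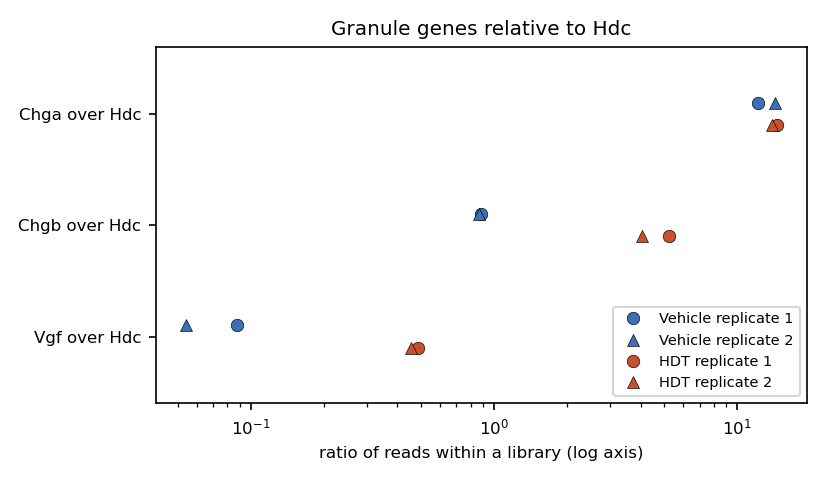
Reads of Chga, Chgb and Vgf per read of Hdc in each library, on a log axis, with blue for Vehicle, red for HDT, and circles and triangles for replicates 1 and 2. The Chga ratio lies between 12.2 and 14.6 in all 4 libraries, whereas the Chgb and Vgf ratios of both HDT mice lie above those of both Vehicle mice.

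The remaining granule proteins were lower or had no call. The vesicle membrane protein synaptophysin (Syp) was at 21.4 and 19.0 CPM in Vehicle and at 12.9 and 9.99 CPM in HDT (log2 fold change −0.83, SE 0.132, limma adjusted p = 0.0022). Resp18, a protein of the endocrine secretory pathway, was at 14.2 and 14.3 CPM in Vehicle and at 9.59 and 8.88 CPM in HDT (log2 fold change −0.62, SE 0.093, limma adjusted p = 0.00139). Both fell with TMM, and neither was called at the deposited scaling (adjusted p = 0.105 for Syp and 0.447 for Resp18). Secretogranin II (Scg2) was at 9.20 and 8.42 CPM in Vehicle and at 6.71 and 7.43 CPM in HDT (limma adjusted p = 0.0614). Secretogranin III (Scg3), which anchors granins to the granule membrane, was at 5.14 and 5.11 CPM in Vehicle and at 4.98 and 3.84 CPM in HDT (limma adjusted p = 0.294). In log2 these differences were −0.32 and −0.23 with TMM, but 0.21 and 0.30 as deposited.

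Nerves of the stomach wall also make Syp, Resp18, Scg2, Scg3, Pcsk1n and Vgf. Of 15 tested enteric neuron markers, 5 were lower, against 19.3% of all genes, and 0 higher, against 18.4%. Their median log2 fold change was −0.62, or −0.09 as deposited. The 16 listed neuron markers summed to 81.8 and 69.6 CPM in Vehicle and to 43.3 and 61.3 CPM in HDT, and none was at 0 in all libraries. Of 10 glial markers, 2 were higher and 1 was lower. Vgf was higher in HDT, and the part of nerves in any of these genes, Vgf included, was not tested.

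Of 7 transcription factors, 1 rose, against 18.4% of all genes, and 6 had no call. The LIM-homeodomain factor Isl1 (chromosome 13, 116298281 to 116309689), which acts in endocrine differentiation and also in neurons and mesenchyme, was at 9.66 and 10.2 CPM in Vehicle and at 24.3 and 24.9 CPM in HDT. The mice of each group were nearly equal, and the HDT mean was 2.47 times that of Vehicle (log2 fold change 1.31, SE 0.082, limma adjusted p = 2.04e-05). Isl1 has the highest mean CPM per kilobase of exon among the 7 factors in both groups, at 2.51 in Vehicle and 6.21 in HDT. Fibroblast markers moved in the same direction, 7 of 9 higher, from 1143 and 1135 to 2150 and 2381 CPM in sum, and their part in the Isl1 rise was not tested. Insm1, a zinc-finger factor of endocrine progenitors and mature cells, was at 1.62 and 1.95 CPM in Vehicle and at 3.01 and 1.51 CPM in HDT. HDT replicate 1 was above and HDT replicate 2 below both Vehicle mice. Neurod1, the bHLH factor downstream of the endocrine determinant Neurog3, was at 0.767 and 0.755 CPM in Vehicle and at 0.817 and 0.416 CPM in HDT, and Rfx6, at 0.881 and 0.61 CPM in Vehicle and 0.7 and 0.416 CPM in HDT, also overlapped.

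Pax6 and Nkx2-2, homeodomain factors of hormone-producing cells, ran the other way between the HDT mice, but on few reads. In HDT replicates 1 and 2 Pax6 had 15 and 23 reads and Nkx2-2 had 22 and 33. Pax6 was at 0.625 and 0.465 CPM in Vehicle and at 0.292 and 0.456 CPM in HDT (limma adjusted p = 0.292). Nkx2-2 was at 0.71 and 0.784 CPM in Vehicle and at 0.428 and 0.654 CPM in HDT (limma adjusted p = 0.272). Hhex, which maintains D cells in the pancreas and is also a gene of endothelium, was at 2.47 and 1.89 CPM in Vehicle and at 2.02 and 2.18 CPM in HDT. Its groups overlapped, as Sst fell. Neurog3 itself, not among the 31 genes, was at 0.0568 and 0.116 CPM in Vehicle and had 0 reads in both HDT libraries, which allows up to 0.0583 and 0.0594 CPM. It had too few reads for the test.

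Many endocrine genes differed between the HDT mice. In 13 of 29 the level in HDT replicate 1 was over 1.5 times that in HDT replicate 2, against 4.58% of all tested genes, and in 2 (Pax6 and Nkx2-2) it was lower by as much, against 3.36%. Between the Vehicle mice, 1 gene (Vgf) exceeded that ratio in favour of replicate 1, against 4.79%, and 0 in favour of replicate 2, against 3.68%. The median ratio of HDT replicate 1 to HDT replicate 2 was 1.29 for the endocrine genes and 1 for all genes. The 13 genes were Gcg, Mboat4, Pcsk1, Pcsk2, Hdc, Slc18a1, Slc18a2, Chga, Chgb, Vgf, Insm1, Neurod1 and Rfx6. Some rest on few reads in HDT replicates 1 and 2: 28 and 16 for Slc18a1, 42 and 21 for Neurod1, and 36 and 21 for Rfx6. Ghrl, Sst, Ddc and Isl1 differed little between the same mice, with ratios of 1.139, 1.03, 1.02 and 0.974. The excess in HDT replicate 1 was not particular to endocrine genes. It was over 1.5 times in 4 of 9 tested parietal cell markers (median ratio 1.45) and in 16 of 111 genes of the wider pathway list. In the pancreatic acinar list, 3 of 7 tested genes (Try5, Ptf1a and Cel) exceeded that ratio. That list summed to 6460 and 4628 CPM in HDT replicates 1 and 2, nearly all Clps. Cpa1 and Prss2 had 0 reads in both HDT libraries. Clps was at 50300 CPM in Vehicle replicate 1, where Cpa1 also had 0 reads, so its level is not read as pancreas here. Summed parietal cell markers were at 2555 CPM in HDT replicate 1 and at 1974 CPM in HDT replicate 2. Smooth muscle and enteric neuron markers ran opposite, the former at 1920 and 2788 CPM and the latter at 43.3 and 61.3 CPM. The part of tissue make-up in the endocrine difference was not tested.

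**Figure D4:**
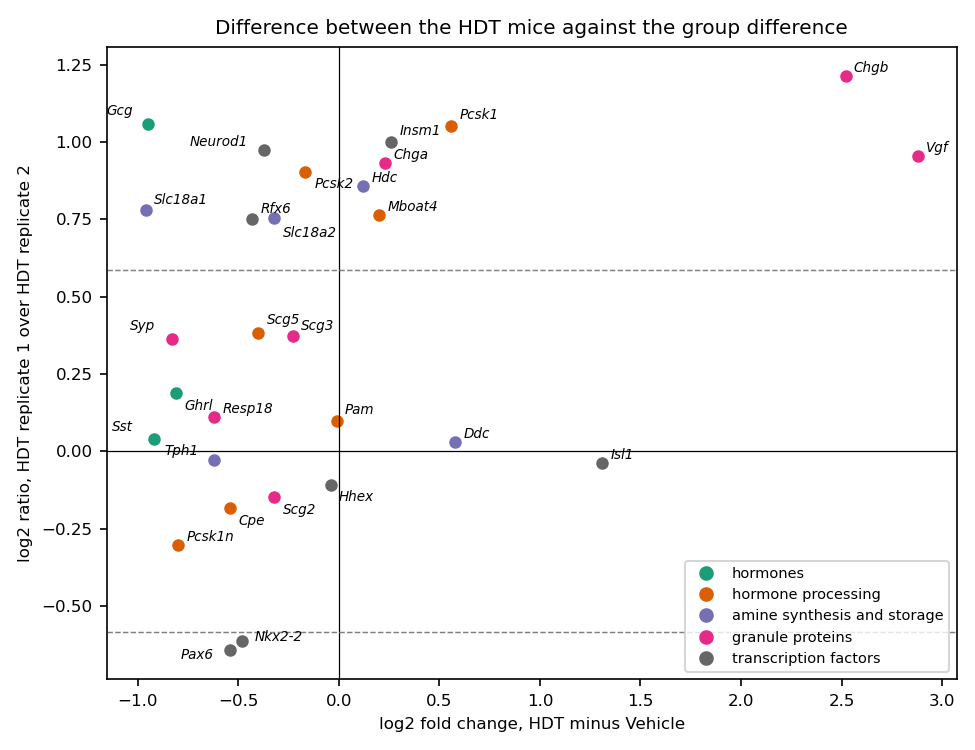
Log2 ratio of HDT replicate 1 to HDT replicate 2 (vertical axis) against the log2 fold change of HDT minus Vehicle (horizontal axis) for the 29 tested endocrine genes, coloured by role. Dashed lines mark a ratio of 1.5 in either direction. Chgb, Vgf, Chga and Hdc lie above the upper line, while Ghrl, Sst, Ddc and Isl1 lie near 0 on the vertical axis.

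Because of this difference the calls moved with the HDT library that was kept. Without HDT replicate 1, 12 endocrine genes were lower, against 15.5% of all genes, and 4 were higher, against 13.9%. The 6 additional lower genes were Gcg, Scg5, Hdc, Pcsk2, Slc18a1 and Slc18a2. Without HDT replicate 2, 6 were lower, against 16.2%, and 8 were higher, against 14.5%. The 5 additional higher genes were Hdc, Chgb, Insm1, Chga and Pcsk1. Leaving out Vehicle replicate 1 gave 6 lower (14.6% of all genes) and 2 higher (13.4%), and leaving out Vehicle replicate 2 gave 7 lower (14.8%) and 2 higher (14.4%), with Vgf no longer called in either. Tph1 was the additional lower gene without Vehicle replicate 2 (log2 fold change −0.871). In each of these fits the library left alone in its group is assumed to vary like those of the other group. For Chgb the HDT mice differed 2.32-fold and the Vehicle mice 1.01-fold, so a fit with 1 HDT mouse leaves the difference between the HDT mice out. Ghrl, Sst, Cpe, Pcsk1n, Syp and Resp18 were called lower, and Ddc and Isl1 higher, whichever of the 4 libraries was left out.

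Levels of different genes were compared as mean CPM per kilobase of annotated exon. In Vehicle, Ghrl led with 770 CPM per kilobase, followed by Sst with 462 and Chga with 132. Cpe followed with 35.9, Resp18 with 13.8, Chgb with 8.78 and Pam with 7.67. In HDT, the order was Ghrl at 441, Sst at 245, Chga at 163 and Chgb at 54.9 CPM per kilobase, ahead of Cpe at 24.8. Chgb thus moved from the sixth to the fourth place.

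Other genes of the pathway were taken from a list of 156, of which 111 were tested. Of these, 33 were lower in HDT and 14 were higher, against 19.3% and 18.4% of all genes, and the median log2 fold change was −0.23. The deposited scaling gave a median of 0.30, against 0.526 for all genes. There 12 were lower, against 5.46% of all genes, and 46 were higher, against 62.8%. With the replicate number as a block 9 were higher (12.9% of all genes) and 29 were lower (14.4%).

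Receptors for gastric hormones and amines were lower in 8 of 22 tested (19.3% of all genes) and higher in 2 (18.4%). Their median log2 fold change was −0.21 (0.30 as deposited). The histamine receptor Hrh2, through which ECL cells drive parietal cells, was at 43.8 and 51.7 CPM in Vehicle and at 8.85 and 7.91 CPM in HDT. It fell 5.70-fold by the means (log2 fold change −2.51, SE 0.103, limma adjusted p = 3.45e-06). The receptor for the neuropeptide PACAP, Adcyap1r1, was at 45.6 and 52.8 CPM in Vehicle and at 14.4 and 11.8 CPM in HDT (log2 fold change −1.91, limma adjusted p = 2.67e-05). The somatostatin receptor Sstr2 was at 16.2 CPM in both Vehicle mice and at 6.51 and 5.88 CPM in HDT (log2 fold change −1.38, limma adjusted p = 4.19e-05). The gastrin receptor Cckbr and the muscarinic receptor Chrm3, named after their values were seen, also fell with TMM. Cckbr was at 10.8 and 10.1 CPM in Vehicle and at 6.69 and 5.85 CPM in HDT (limma adjusted p = 0.00177), and it was not called at the deposited scaling (adjusted p = 0.174). Chrm3 was at 12.7 and 14.1 CPM in Vehicle and at 7.33 and 6.14 CPM in HDT (limma adjusted p = 0.000521). Parietal cells carry Hrh2, Cckbr and Chrm3, and 7 of 9 tested parietal cell markers, Hrh2 among them, were lower. That list summed to 13930 and 15710 CPM in Vehicle and to 2555 and 1974 CPM in HDT, and its part in the receptor falls was not tested. The ghrelin receptor gene Ghsr had 0 reads in all 4 libraries.

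Of 46 tested genes of granule exocytosis, 13 were lower (19.3% of all genes) and 5 higher (18.4%). Their median log2 fold change was −0.23 (0.30 as deposited). The Rab effector Rph3al was at 83.5 and 77.8 CPM in Vehicle and at 22.0 and 18.2 CPM in HDT (log2 fold change −2.01, limma adjusted p = 7.33e-06). The calcium sensor Syt7 was at 55.3 and 55.1 CPM in Vehicle and at 30.1 and 22.3 CPM in HDT (log2 fold change −1.09, limma adjusted p = 0.00186). The Rab27 effector Sytl4 was at 54.4 and 52.3 CPM in Vehicle and at 23.1 and 27.4 CPM in HDT (log2 fold change −1.08, limma adjusted p = 8.04e-05). All 3 stayed lower at the deposited scaling, and which cells of the corpus carry them was not tested. The granule membrane protein Ptprn, named after its values were seen, was at 6.51 and 6.42 CPM in Vehicle and at 18.2 and 9.35 CPM in HDT. Like Chgb, it was above Vehicle in both HDT mice, differed 1.94-fold between them and did not pass the test (log2 fold change 1.01, limma adjusted p = 0.106).

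Of 13 other gut peptides tested, 4 were lower (19.3% of all genes) and 2 higher (18.4%). Their median log2 fold change was −0.55 (−0.03 as deposited). Proenkephalin (Penk), an opioid precursor of enteric nerves, was at 13.8 and 10.5 CPM in Vehicle and at 4.98 and 5.23 CPM in HDT (log2 fold change −1.24, limma adjusted p = 0.000446). Gastrin-releasing peptide (Grp), the nerve peptide that stimulates G cells, was at 7.95 and 5.52 CPM in Vehicle and at 2.45 and 3.35 CPM in HDT (log2 fold change −1.20, limma adjusted p = 0.00513). Uroguanylin (Guca2b), which regulates salt and water transport in the gut, was at 0.256 and 0.174 CPM in Vehicle and at 1.59 and 2.32 CPM in HDT (log2 fold change 3.06, limma adjusted p = 0.000272).

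Of 20 other transcription factors tested, 4 were lower (19.3% of all genes) and 4 higher (18.4%). Their median log2 fold change was −0.16 (0.35 as deposited). Foxa1, a forkhead factor of the whole gastric epithelium, was at 120 and 132 CPM in Vehicle and at 239 and 227 CPM in HDT (log2 fold change 0.89, limma adjusted p = 5.68e-05). Tox3 was at 22.6 and 22.4 CPM in Vehicle and at 39.9 and 36.5 CPM in HDT (log2 fold change 0.76, limma adjusted p = 0.000154). Runx1t1, a corepressor, was at 12.8 and 14.2 CPM in Vehicle and at 5.41 and 4.66 CPM in HDT (log2 fold change −1.42, limma adjusted p = 8.76e-05).

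Of 10 tested genes of amine cofactors and breakdown, 4 were lower (19.3% of all genes) and 1 higher (18.4%). Their median log2 fold change was −0.13 (0.40 as deposited). Sepiapterin reductase (Spr) and Pts, enzymes of tetrahydrobiopterin synthesis, the cofactor of Tph1, fell with TMM, by −0.44 for Spr and −0.38 for Pts in log2 (limma adjusted p = 0.000902 and 0.00397). As deposited the values were 0.09 and 0.15, not called.

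**Figure D5:**
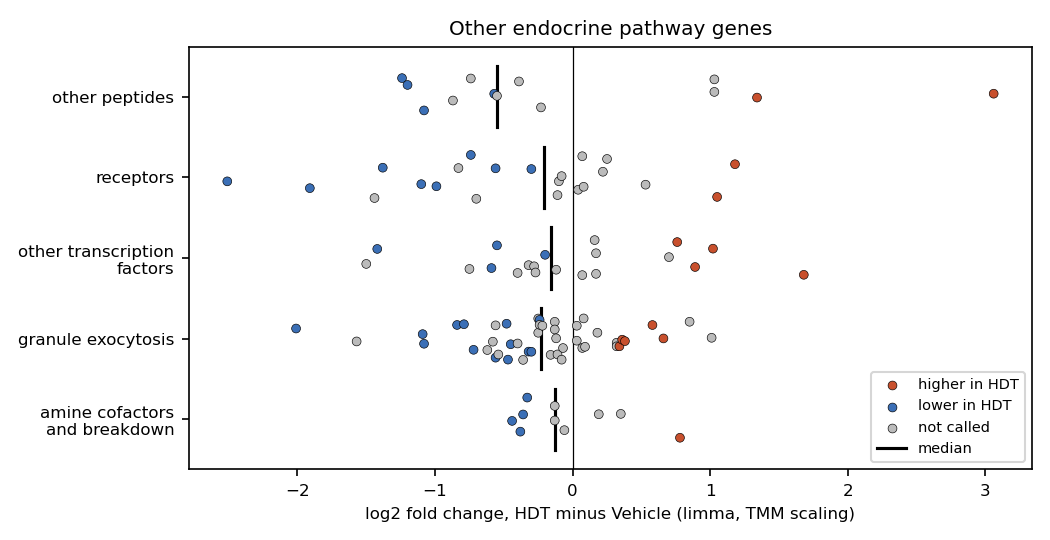
Log2 fold change (HDT minus Vehicle, TMM scaling) of the 111 tested genes of the wider endocrine pathway, in 5 groups, with vertical placement within a group random. Red and blue dots passed the limma test as higher and lower, grey dots did not, and black bars mark group medians, from −0.55 for the other peptides to −0.13 for amine cofactors and breakdown.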

How the data were processed

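The authors deposited 1 table of normalized counts per gene symbol for the 4 libraries. The submitters' processing notes name the aligner STAR (2.7.1a), the Subread package (2.0.0) with its counter featureCounts, edgeR, and the builds GRCm38 and mm10. For the annotation, the strand setting and the normalization: not given in the sources used here. In this deposited signal each value above 0 is a whole number of reads times a library constant (1.1128 to 1.1381), and division gave whole reads for 100% of values within 0.01. Genes passing edgeR's filterByExpr on recovered reads (18285) were tested on log2(value + 1) after TMM scaling, so fold changes of low genes are understated. limma 3.58.1 was used with trend and robust moderation, group as the only term, two-sided, with Benjamini-Hochberg adjustment over all tested genes. edgeR 4.0.16 and DESeq2 1.42.0 ran on recovered reads as alternatives. The median prior degrees of freedom were 5.86. P-values rest on the spread between 2 mice per group, moderated toward the variance of genes of similar level. CPM uses recovered reads and TMM-scaled library sizes, and precision for scarce genes is set by their reads. Exon overlaps and positions come from GENCODE M21 (GRCm38), where 10 of the 31 genes, Ghrl among them, share 40 to 875 exon bases with another gene model, so reads there may be mixed. The genes and lists were chosen with earlier results of these data known. All 31 genes were to be named, and in each pathway group the 3 most changed called genes with at least 1 CPM. Of these, 1 gene is not reported here. Same-numbered mice did not deviate together (r = −0.142), and replicate numbers were not used as pairs. With 2 mice per group this value cannot show whether the numbers denote pairs.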

Additional observations from a re-analysis of the deposited data

How the results depend on the processing

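With 2 mice per group, calls rest on few residual degrees of freedom and on the variance shared across genes. The 6 lower endocrine genes kept their call in every alternative except the deposited scaling. Their counts (6 lower, 3 higher) stayed within 1.5 times under the other scalings, filters, pseudocounts, edgeR, DESeq2 and the replicate block. Without the low-count filter Gast and Nts were tested too, and 7 endocrine genes were lower. The added one was Nts, on 6 and 8 reads in Vehicle and 1 and 1 in HDT. At the deposited scaling the counts were 2 lower and 6 higher for endocrine genes, 12 and 46 for pathway genes, and 998 and 11483 for all genes. Leaving out 1 library gave 6 to 12 lower and 2 to 8 higher endocrine genes, and 7 to 15 higher pathway genes. The replicate block gave 7 lower and 3 higher endocrine genes and 9 higher pathway genes. Deviations of same-numbered mice gave r = −0.142, which with 2 mice per group cannot show whether the numbers pair the mice. A crossed pairing, chosen after seeing the data, gave 9 lower and 2 higher.

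Log2 fold changes that turned sign at the deposited scaling were Pcsk2 0.36, Pam 0.518, Scg5 0.127, Slc18a2 0.212, Scg2 0.213, Scg3 0.302, Neurod1 0.146, Rfx6 0.089, Nkx2-2 0.035, Hhex 0.487, Spr 0.092 and Pts 0.148. Pam was 0.02 with upper-quartile scaling. Over fits leaving out 1 library, values crossed 0 for Mboat4 (−0.173 to 0.596), Pcsk2 (−0.614 to 0.295), Pam (−0.059 to 0.051), Hdc (−0.299 to 0.568), Slc18a2 (−0.691 to 0.073), Chga (−0.229 to 0.714), Insm1 (−0.228 to 0.772), Neurod1 (−0.831 to 0.115) and Hhex (−0.238 to 0.147). The cause was not tested.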
